A study of Mus musculus with 8 samples.

Results

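A set of 10 genes of steroid metabolism was followed in the caput epididymis, the upstream end of the duct that carries sperm away from the testis. They are the 3 steroid 5-alpha-reductase genes (Srd5a1, Srd5a2 and Srd5a3), 5 genes named as 17-beta-hydroxysteroid dehydrogenases (Hsd17b1, Hsd17b2, Hsd17b4, Hsd17b6 and Hsd17b11) and both 11-beta-hydroxysteroid dehydrogenase genes (Hsd11b1 and Hsd11b2). Each was taken by its symbol from the deposited table, which held all 10 of them among 24059 gene rows. RNA from Nell2-KO mice (genotype Nell2-/-, 4 libraries) was compared with RNA from wild-type (WT) mice (4 libraries). All mice were of strain C57BL/6N and 14 weeks old, and the tissue was the whole caput. NELL2 is a secreted protein made in the testis that reaches the caput through the lumen of the duct. The labels give no further detail of the knockout allele, and they describe replicates by number without saying that each is a separate animal, so p-values here measure the spread between these libraries.

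Testosterone enters the caput from the blood and from the testicular fluid. The 5-alpha-reductases convert it to dihydrotestosterone, a more potent androgen, and the epididymis is among the tissues that depend on this step. The 17-beta-hydroxysteroid dehydrogenases interconvert weak and strong androgens and estrogens, although several enzymes of that name act mainly on fatty acids, retinoids or other lipids. The 11-beta-hydroxysteroid dehydrogenases set the local level of active glucocorticoid: the type 1 enzyme regenerates it and the type 2 enzyme inactivates it.

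Library totals ran from 801112 to 6256204 counts. Nell2-KO replicate 1 was the smallest library and stood apart: its counts in genes per RPKM total came to 0.496 times the average of WT, and those of Nell2-KO replicates 2 to 4 to 1.02 to 1.03 times. WT replicate 2 also stood apart, at 0.9001 times that average, against 1.03 to 1.04 times for the other WT libraries, and with a chi-square per degree of freedom of 8.02 to 10.45 against each of them, where they differed among themselves by 1.29 to 2.09. Within Nell2-KO the chi-square per degree of freedom was 12.65 to 17.6 for replicate 1 against each of the others. It was 14.57 between replicates 3 and 4, 7.42 between replicates 2 and 4, and 2.12 between replicates 2 and 3. By this measure Nell2-KO replicate 4 also differed from replicates 2 and 3. Nell2 had 0 reads in all 8 libraries and therefore did not check the genotype labels. A list of 14 caput epithelial genes had summed levels of 99190 to 123000 CPM (counts divided by library size after TMM scaling) in Nell2-KO and 132400 to 141700 CPM in WT, although 11 of them were lower in Nell2-KO and 2 higher. Most of the Nell2-KO sum was Gpx5, a secreted peroxidase gene, at 83560 ± 12040 CPM in Nell2-KO and 69400 ± 4750 CPM in WT, while Lcn8, Lcn9, Cst8 and Rnase10 averaged 2.04 to 5.89 CPM in Nell2-KO and 2330 to 7767 CPM in WT (SD, n = 4 each). Of 12 genes that mark the initial segment, the most upstream stretch of the caput, 12 were lower in Nell2-KO. Their summed level there was 413.8 to 594.2 CPM, against 31770 to 39850 CPM in WT. Lcn8, Lcn9, Cst8, Rnase10 and others are on both lists, so the counts and sums of these lists are not independent. In whole tissue, fewer cells of a type and less RNA per cell cannot be told apart.

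The starting regions of the pair of 5-alpha-reductase genes that act on testosterone are shown first, because these genes behaved differently in the data below. Srd5a1 (ENSMUSG00000021594.11) spans bases 69573449 to 69611442 of chromosome 13 (mm10, minus strand). Srd5a2 (ENSMUSG00000038541.8) spans bases 74016955 to 74047916 of chromosome 17, also on the minus strand. The lines give RefSeq sequence of GRCm38.p6 directly upstream of each gene's outermost start in RefSeq or GENCODE, 228 bases at chr13:69611486-69611713 and 194 bases at chr17:74047917-74048110, 5′ to 3′ on the strand of the gene. Capitals mark the GC box GGGCGG, searched on both strands and chosen after the sequences were seen.
Srd5a1: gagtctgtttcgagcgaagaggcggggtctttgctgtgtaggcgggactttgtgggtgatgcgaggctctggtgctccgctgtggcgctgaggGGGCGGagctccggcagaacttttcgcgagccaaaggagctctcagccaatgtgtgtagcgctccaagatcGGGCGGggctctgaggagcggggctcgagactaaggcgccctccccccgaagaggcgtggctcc
Srd5a2: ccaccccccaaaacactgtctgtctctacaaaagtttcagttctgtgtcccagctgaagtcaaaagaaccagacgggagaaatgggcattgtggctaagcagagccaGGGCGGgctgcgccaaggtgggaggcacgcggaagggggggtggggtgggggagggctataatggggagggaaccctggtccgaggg
In the full 300-base windows (250 bases before to 50 after the RefSeq start) the GC box occurred 4 times for Srd5a1 and 2 times for Srd5a2. It occurred at least once in 35.7% and at least 2 times in 19.5% of all 32851 mouse windows of this length. Neither window held the steroid hormone response half-site AGAACA, present in 19% of all windows, or the PEA3 core AGGAAG, present in 35.4%, on either strand. The complete androgen response element, searched only as an exact palindrome that contains AGAACA, was found in 3 of the 32851 windows. Its absence from both windows here follows from the absence of the half-site and adds nothing to it. The absence of these letters from a 300-base window says nothing about binding elsewhere.

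Srd5a1 was the 1 gene of the 10 that passed the test, and it was lower in Nell2-KO. Srd5a1 encodes the type 1 5-alpha-reductase, a membrane enzyme of the endoplasmic reticulum. It was at 4.22, 3.64, 6.55 and 3.78 CPM in Nell2-KO replicates 1 to 4, against 46.2, 50.4, 39.8 and 41.5 CPM in WT replicates 1 to 4. Every Nell2-KO library was far below every WT library. The reads behind these levels were 3, 5, 43 and 21 in Nell2-KO and 118, 103, 82 and 91 in WT. Mean levels were 4.55 ± 1.36 CPM in Nell2-KO and 44.5 ± 4.78 CPM in WT (SD, n = 4 each). In edgeR's quasi-likelihood test the log2 fold change (Nell2-KO over WT) was -3.17 ± 0.22 (SE), a level 8.98 times lower with a 95% interval of 6.42 to 12.5 times (Benjamini-Hochberg adjusted p = 1.03e-06). The value stayed between -3.52 and -2.87 over 14 alternatives, with adjusted p of at most 7.24e-05 in edgeR or DESeq2.

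Of the 10 genes, 5 had enough reads to be tested (Srd5a1, Srd5a2, Srd5a3, Hsd17b4 and Hsd17b11). One of them, Srd5a1, was lower at an adjusted p under 0.05 and 0 were higher, by edgeR, by an unadjusted p under 0.05 and by DESeq2 alike. Over all 11062 genes tested with edgeR, 8.71% were called lower and 6.24% higher. With 5 genes tested, a single call is not read against that background as a result about the genes as a group. Their median log2 fold change was -0.26, against 0.03 over all genes tested. Srd5a1 had the 167th lowest log2 fold change among the 964 genes called lower. At least an 8-fold fall was called for 1.64% of genes tested.

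**Figure D1:**
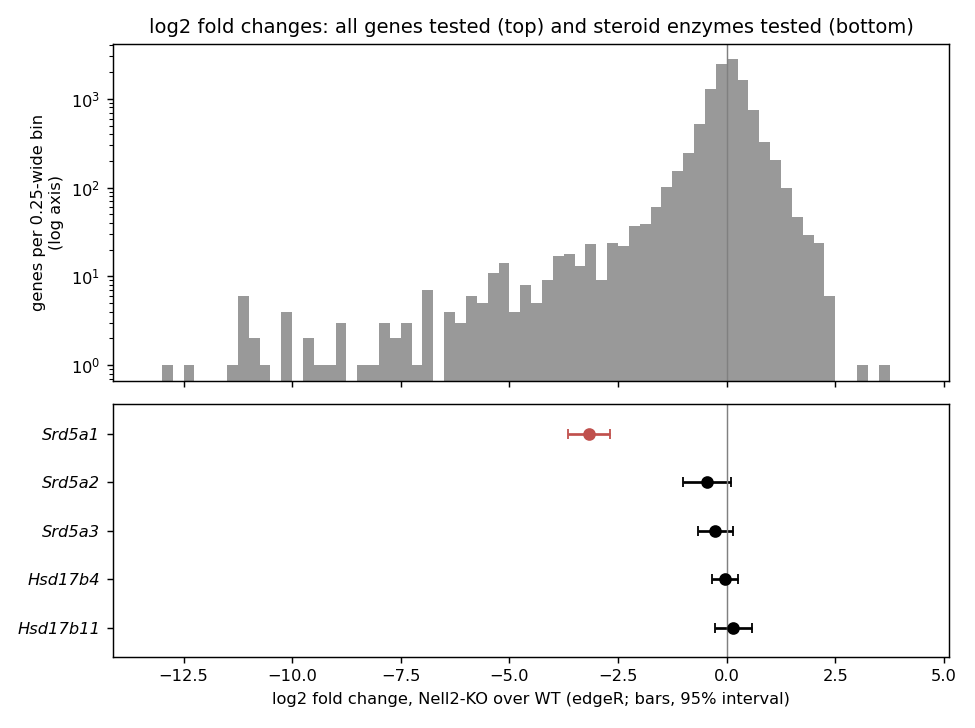
The top panel counts all 11062 genes tested by log2 fold change (Nell2-KO over WT, log count axis), and the bottom panel gives the 5 steroid enzyme genes tested with their 95% intervals. Srd5a1 (red, called) lies at -3.17, while the intervals of the other 4 (black, not called) include 0.

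A pair of annotated genes overlaps Srd5a1, which bears on what its reads can come from. It lies within the span of Nsun2 on the opposite strand, with 0 exon bases shared, and Nsun2, an RNA methyltransferase gene, was at 100.6 ± 9.26 CPM in Nell2-KO and 83.95 ± 13.0 CPM in WT (SD, n = 4 each; log2 fold change 0.25, edgeR adjusted p = 0.309). It also shares 476 exon bases with Gm17108, a transcript model on the same strand that was not analysed here. Reads of these bases cannot be assigned to one or the other, and the strand setting of the counting is not given. Srd5a2 likewise shares 144 exon bases with CT025731.1 on the same strand.

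Srd5a2 encodes the type 2 5-alpha-reductase, which has a high affinity for testosterone and is the major isozyme of the male reproductive tract. It was at 30.98, 63.3, 65.6 and 102.7 CPM in Nell2-KO replicates 1 to 4, against 95.95, 85.1, 100.6 and 94.9 CPM in WT replicates 1 to 4. The Nell2-KO libraries were spread widely, with replicate 1 lowest at 22 reads and replicate 4 above every WT library, so the groups overlapped. Mean levels were 65.6 ± 29.3 CPM in Nell2-KO and 94.1 ± 6.49 CPM in WT (SD, n = 4 each). The log2 fold change was -0.45 ± 0.25 (SE, edgeR adjusted p = 0.284), with a 95% interval of -0.999 to 0.10. Its size and call rested on single libraries: leaving out Nell2-KO replicate 4 gave -0.75, which passed the test (edgeR adjusted p = 0.0481), and leaving out Nell2-KO replicate 1 gave -0.26 (edgeR adjusted p = 0.25). Adjusted p ran from 0.0481 to 0.463 over the 14 alternatives.

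Srd5a3 encodes the third member of the family, which reduces polyprenol to dolichol, the lipid carrier on which N-linked glycans are built. It lies on chromosome 5 at 76140271 to 76155504 (ENSMUSG00000029233.15, plus strand). Its levels were 14.1, 22.5, 19.3 and 26.4 CPM in Nell2-KO replicates 1 to 4, against 22.7, 25.9, 28.2 and 26.9 CPM in WT replicates 1 to 4. The groups overlapped, with Nell2-KO replicate 1 again the lowest. Means were 20.6 ± 5.22 CPM in Nell2-KO and 25.9 ± 2.34 CPM in WT (SD, n = 4 each), and the log2 fold change was -0.26 ± 0.19 (SE; 95% interval -0.67 to 0.15; edgeR adjusted p = 0.428). That interval leaves room for a fall to 0.628 of the WT level.

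**Figure D2:**
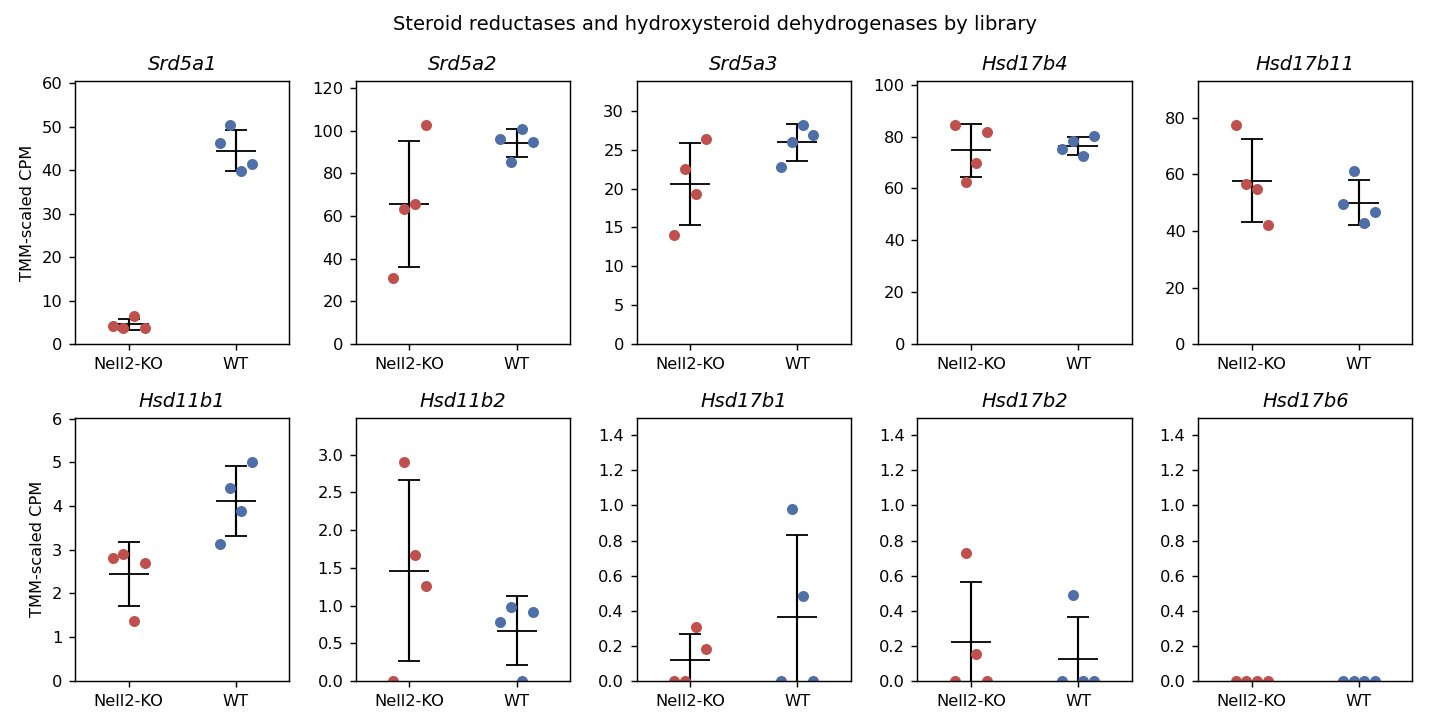
Each panel shows TMM-scaled CPM of 1 gene (linear axis from 0), with a point per library, Nell2-KO in red and WT in blue, and bars for the mean and SD of 4 libraries. Srd5a1 and Hsd11b1 are the genes whose groups do not overlap, Srd5a1 at 3.64 to 6.55 CPM in Nell2-KO and 39.8 to 50.4 CPM in WT. Such separation, in either direction, was seen for 22.1% of all genes tested, and Hsd11b1 had too few reads to be tested.

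The make-up of 5-alpha-reductase transcripts was compared within each library, where it does not depend on the scaling between libraries. The authors' RPKM, which divide by transcript length, were used as levels that can be set against each other between genes. In Nell2-KO replicate 1, counts in genes per RPKM total were 0.496 times the average of WT. This lowers its RPKM for every gene, and with it the Nell2-KO means, but not the shares within a library. In Nell2-KO, Srd5a2 was first at 47.1 ± 28.1 RPKM, Srd5a3 followed at 6.90 ± 3.31 RPKM, and Srd5a1 was last at 0.973 ± 0.497 RPKM (SD, n = 4). In WT, Srd5a2 also led, with 68.3 ± 9.21 RPKM, while Srd5a1 with 10.3 ± 0.735 RPKM and Srd5a3 with 9.05 ± 1.03 RPKM overlapped in their spread (SD, n = 4). Srd5a1 made up 2.19 ± 1.10% of the summed RPKM of the 3 genes in Nell2-KO and 11.8 ± 1.78% in WT. The share of Srd5a2 was 84.1 ± 3.69% in Nell2-KO and 77.8 ± 2.02% in WT, and that of Srd5a3 was 13.7 ± 2.84% in Nell2-KO and 10.4 ± 0.912% in WT.

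Counted as reads of the pair, Srd5a1 gave 12, 5.43, 9.07 and 3.55% of the reads of Srd5a1 and Srd5a2 together in Nell2-KO replicates 1 to 4. The same share was 32.5, 37.2, 28.4 and 30.4% in WT replicates 1 to 4. The highest Nell2-KO library was thus far below the lowest WT library. The log2 ratio of Srd5a1 to Srd5a2 reads averaged -3.77 ± 0.84 in Nell2-KO and -1.08 ± 0.25 in WT (SD, n = 4 each). Against Srd5a3, the log2 read ratio of Srd5a1 averaged -2.18 ± 0.63 in Nell2-KO and 0.78 ± 0.25 in WT (SD, n = 4 each). These ratios are given as descriptions without a test.

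**Figure D3:**
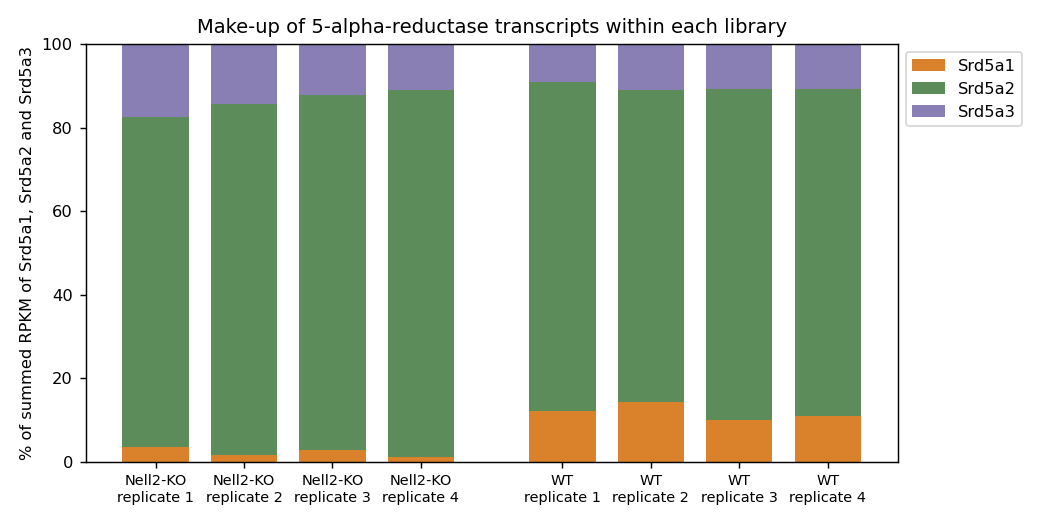
Stacked bars give, for each of the 4 Nell2-KO (left) and 4 WT libraries (right), the percent of the summed RPKM of the 5-alpha-reductase genes that fell to Srd5a1 (orange), Srd5a2 (green) and Srd5a3 (purple). Srd5a2 is the largest share in all 8 libraries, and the Srd5a1 share averages 2.19% in Nell2-KO and 11.8% in WT.

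Hsd17b4 and Hsd17b11 were the abundant genes of the 17-beta-hydroxysteroid dehydrogenase name, and neither passed the test. Hsd17b4 (chromosome 18, 50128201 to 50196269, plus strand, ENSMUSG00000024507.6) encodes a peroxisomal bifunctional enzyme that breaks down very long-chain fatty acids and bile acid precursors besides oxidising estradiol. It was at 84.5, 62.5, 69.9 and 81.8 CPM in Nell2-KO replicates 1 to 4, against 75.2, 78.3, 72.4 and 80.3 CPM in WT replicates 1 to 4. The WT values fell within the range of the Nell2-KO values. With means of 74.7 ± 10.3 CPM in Nell2-KO and 76.5 ± 3.46 CPM in WT (SD, n = 4 each), the log2 fold change was -0.04 ± 0.14 (SE, edgeR adjusted p = 0.897). Its 95% interval of -0.35 to 0.27 was the narrowest of the 5 genes tested.

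Hsd17b11 (chromosome 5, 103989762 to 104021919, minus strand, ENSMUSG00000029311.16) encodes an enzyme found on lipid droplets. Its levels were 77.4, 56.7, 54.8 and 42.1 CPM in Nell2-KO replicates 1 to 4, against 49.3, 61.2, 42.8 and 46.5 CPM in WT replicates 1 to 4. Nell2-KO replicate 1 was the highest of the 8 and Nell2-KO replicate 4 the lowest. Means were 57.8 ± 14.6 CPM in Nell2-KO and 49.9 ± 7.95 CPM in WT (SD, n = 4 each), and the log2 fold change was 0.16 ± 0.19 (SE, edgeR adjusted p = 0.665; 95% interval -0.27 to 0.58). Per length, both genes ranked below Srd5a2 and above the other 7 genes in either genotype. Hsd17b4 was at 15.3 ± 4.84 RPKM in Nell2-KO and 17.6 ± 1.39 RPKM in WT, and Hsd17b11 at 18 ± 4.62 RPKM in Nell2-KO and 18 ± 1.64 RPKM in WT (SD, n = 4 each), so these neighbours did not differ beyond their spread. The Nell2-KO means include replicate 1, whose RPKM run low for every gene. For Hsd17b4 that library was the lowest of the 8 by RPKM, at 8.55, and the highest by CPM, at 84.5.

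Hsd17b1, Hsd17b2 and Hsd17b6 were at or near the limit of detection in both genotypes. Hsd17b1, which reduces estrone to estradiol, had 3 reads over the 4 Nell2-KO libraries and 3 over the 4 WT libraries. The ratio of scaled counts was 0.623 with an exact binomial 95% interval of 0.0834 to 4.65. Hsd17b2, which oxidises estradiol and testosterone to their weaker forms, had 2 reads in Nell2-KO and 1 in WT (ratio 1.25, interval 0.0648 to 73.5). Hsd17b6, an oxidative enzyme that acts on 3-alpha-hydroxysteroids and retinoids, had 0 reads in all 8 libraries. With no read seen, a level of up to 3 reads is still allowed, or 0.211 CPM over the pooled Nell2-KO libraries and 0.339 CPM over the pooled WT libraries. These intervals and limits cover counting error only, because reads were pooled over the libraries of a group, which leaves out the spread between libraries. The RNA was amplified and the reads carry no molecular identifiers, so counting error itself can be understated.

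Hsd11b1 and Hsd11b2 were both low, and neither had enough reads to enter the test. Hsd11b1 (chromosome 1, 193221634 to 193264075, minus strand, ENSMUSG00000016194.14) was at 2.82, 2.91, 1.37 and 2.70 CPM in Nell2-KO replicates 1 to 4, against 3.13, 4.40, 3.89 and 5.02 CPM in WT replicates 1 to 4. Every Nell2-KO value was below every WT value, by a small margin at the nearest pair. Such separation, in either direction, was seen for 22.1% of all genes tested, and with Nell2-KO lower for 12.6%. The levels rested on 30 reads in Nell2-KO and 36 in WT, a ratio of scaled counts of 0.519 with an exact binomial 95% interval of 0.309 to 0.866 that covers counting error only. When every gene with a read was tested, edgeR gave a log2 fold change of -0.88 ± 0.41 (SE) with an unadjusted p of 0.0444 and an adjusted p of 0.231, so the difference did not pass. Hsd11b1 overlaps Lamb3 and the 4930570N18Rik antisense model on the opposite strand, and shares 0 exon bases with either. On its own strand it overlaps the Gm38118 model, also with 0 exon bases shared.

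Hsd11b2 (chromosome 8, 105518755 to 105523988, plus strand, ENSMUSG00000031891.6) had 0, 4, 11 and 7 reads in Nell2-KO replicates 1 to 4 and 2, 2, 0 and 2 reads in WT replicates 1 to 4. In CPM these were 0, 2.91, 1.68 and 1.26 in Nell2-KO, against 0.783, 0.979, 0 and 0.912 in WT. A library at 0 was present in both groups, and the groups overlapped. The ratio of scaled counts was 2.28 with an exact binomial 95% interval of 0.898 to 6.88, which includes 1. Tested without a filter, its log2 fold change was 1.16 ± 0.71 (SE, edgeR adjusted p = 0.401). In the 3 libraries of each group that had reads of both genes, the log2 ratio of Hsd11b1 to Hsd11b2 reads averaged 0.27 ± 0.73 in Nell2-KO and 2.21 ± 0.23 in WT (SD, n = 3 each), from at most 15 reads of a gene in a library. The libraries left out, Nell2-KO replicate 1 and WT replicate 3, had reads of Hsd11b1 only. With them, Hsd11b1 gave 65.8 ± 24.9% of the reads of the pair in Nell2-KO and 86.6 ± 9.13% in WT (SD, n = 4 each), and the groups overlapped.

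Genes that share steps or substrates with these enzymes were taken from lists and described by their counts. The lists here and below were chosen with earlier results of these data known. Of 26 other hydroxysteroid dehydrogenases, steroid reductases and helpers, 25 matched a row, 6 had 0 reads in all libraries and 10 were tested, of which 2 fell and 0 rose (by edgeR; 1 rose and 3 fell at an unadjusted p under 0.05, and DESeq2 called 0 higher and 1 lower). H6pd, which supplies NADPH inside the endoplasmic reticulum to the enzyme encoded by Hsd11b1, fell 2.22-fold, to 36.6 ± 13.5 CPM in Nell2-KO, against 85.1 ± 4.59 CPM in WT (SD, n = 4 each; edgeR adjusted p = 0.00287). Its lowest library was Nell2-KO replicate 1 at 16.9 CPM, while the other Nell2-KO libraries were at 39.6 to 47.3 CPM. Akr1c13, an aldo-keto reductase gene, was at 11.6 ± 2.31 CPM in Nell2-KO and 19.1 ± 1.505 CPM in WT (SD, n = 4 each; edgeR adjusted p = 0.0417). Its call ended on leaving out Nell2-KO replicate 2, Nell2-KO replicate 4 or any 1 of the WT libraries. It also ended with no filter, with the replicate number as a block in the fit, and in DESeq2. The edgeR adjusted p then reached 0.113, when WT replicate 3 was left out. Akr1c genes share much sequence, so counts of single members are uncertain for 36-base reads. Hsdl1 was at 30.6 ± 9.23 CPM in Nell2-KO and 18.4 ± 6.11 CPM in WT (SD, n = 4 each; edgeR adjusted p = 0.0806), and without Nell2-KO replicate 1 it passed (edgeR adjusted p = 0.0401).

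Of 12 genes for steroid synthesis from cholesterol, 11 matched and 5 were tested, with 1 higher and 1 lower. Cyp17a1, the 17-alpha-hydroxylase and lyase of androgen synthesis, rose 4.93-fold: it was at 15.5, 11.6, 11 and 14.9 CPM in Nell2-KO replicates 1 to 4, against 3.13, 1.47, 2.92 and 2.74 CPM in WT replicates 1 to 4 (edgeR adjusted p = 0.000122). The groups were well apart, on 182 reads in Nell2-KO and 23 in WT. It is also 1 of 8 Leydig cell markers, whose summed level was 22.9 to 26.9 CPM in Nell2-KO, against 8.81 to 14.6 CPM in WT. Of these 8, 2 were tested, Cyp17a1, which rose, and Star, which did not pass. Of the rest, Hsd3b1 and Hsd17b3 had 0 reads in both groups, Hsd3b6 and Insl3 each had 1 read in Nell2-KO and 0 in WT, Lhcgr had 3 in Nell2-KO and 4 in WT, and Cyp11a1 had 10 in Nell2-KO and 9 in WT. The part of these cells in the result was not tested. Star, which moves cholesterol into mitochondria, was at 11 ± 2.60 CPM in Nell2-KO and 8.32 ± 1.69 CPM in WT (SD, n = 4 each; edgeR adjusted p = 0.321). Por, the reductase that feeds electrons to microsomal P450 enzymes, fell 1.81-fold, to 26.5 ± 6.49 CPM in Nell2-KO, against 50.7 ± 7.65 CPM in WT (SD, n = 4 each; edgeR adjusted p = 0.00714). Of 13 conjugating and hydroxylating genes, 12 matched, 7 had 0 reads in all libraries and 4 were tested, of which 0 passed in edgeR or DESeq2 and 1 was higher at an unadjusted p under 0.05. That gene was Cyp1b1, a steroid hydroxylase, at 179.3 ± 64.9 CPM in Nell2-KO and 116.5 ± 14.1 CPM in WT (SD, n = 4 each; edgeR adjusted p = 0.126, and 0.0327 without Nell2-KO replicate 4). Cyp7b1, an oxysterol hydroxylase gene, and Sult2b1, a steroid sulfotransferase gene, also did not pass (edgeR adjusted p = 0.791 for Cyp7b1 and 0.953 for Sult2b1).

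Among the steroid receptor genes, Nr3c2 and Gper1 fell. Nr3c2, the mineralocorticoid receptor whose selectivity the enzyme encoded by Hsd11b2 protects in other tissues, fell 2.10-fold, to 9.36 ± 2.45 CPM in Nell2-KO, against 20.1 ± 3.76 CPM in WT (SD, n = 4 each; edgeR adjusted p = 0.00668). Gper1, a membrane receptor reported to bind estrogen, fell 10.5-fold, on 15 reads in Nell2-KO and 100 in WT (edgeR adjusted p = 0.000145). Nell2-KO replicate 3 held 10 of the 15 reads and Nell2-KO replicate 1 held 0. Without Nell2-KO replicate 3 the Gper1 log2 fold change was -4.01 in place of -3.40 (edgeR adjusted p = 0.000612). The glucocorticoid receptor gene Nr3c1 was at 126.8 ± 27.98 CPM in Nell2-KO and 105.5 ± 5.85 CPM in WT (SD, n = 4 each; edgeR adjusted p = 0.384).

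Lists of genes that respond to these hormones were set beside all genes tested, of which 8.71% were called lower and 6.24% higher. Of 14 androgen response genes, 10 were tested, 2 rose and 2 fell. Crisp1, a sperm-coating secretory protein, fell to 104.5 ± 146.3 CPM in Nell2-KO, against 1198 ± 180.1 CPM in WT (SD, n = 4 each; edgeR adjusted p = 0.00927, and 0.0866 when every gene with a read was tested). Nell2-KO replicate 1 was the highest Nell2-KO library for Crisp1, at 322.5 CPM, and without it the log2 fold change was -5.20 in place of -3.67. Adam7, a sperm-binding ADAM protein, fell less (log2 fold change -0.58, edgeR adjusted p = 0.0395). The call of Adam7 ended on leaving out any 1 library other than Nell2-KO replicate 1, where the edgeR adjusted p reached 0.138 (Nell2-KO replicate 3 left out). It also ended with RLE scaling (edgeR adjusted p = 0.0511) and with the replicate number as a block in the fit (0.131). Acpp, an acid phosphatase gene, rose to 174.2 ± 15.6 CPM in Nell2-KO, against 111.0 ± 4.45 CPM in WT (SD, n = 4 each; edgeR adjusted p = 0.00378), and the lipocalin gene Lcn5 also rose (log2 fold change 1.88, edgeR adjusted p = 0.0258). WT replicate 2 was far below the other WT libraries for Lcn5, at 226.1 CPM against 1570 to 1775 CPM. The call of Lcn5 ended on leaving out Nell2-KO replicate 1 or 4 or WT replicate 1 or 3, where the edgeR adjusted p reached 0.1304 (Nell2-KO replicate 1 left out), and with no filter (0.163). Crisp1, Lcn5 and Adam7 are also among the caput markers above. Of 12 glucocorticoid response genes, 10 were tested and 1 rose: Cdkn1c, a cell cycle inhibitor, at 24.3 ± 19.6 CPM in Nell2-KO and 4.71 ± 1.38 CPM in WT (SD, n = 4 each; edgeR adjusted p = 0.0146). Nell2-KO replicate 1 was far above the other Nell2-KO libraries for Cdkn1c, at 53.5 CPM against 10.97 to 16.7 CPM. Errfi1, a feedback inhibitor of the EGF receptor, was at 132.5 ± 16.7 CPM in Nell2-KO and 102.6 ± 4.50 CPM in WT (SD, n = 4 each; edgeR adjusted p = 0.0798), and it passed without Nell2-KO replicate 1 (edgeR adjusted p = 0.00262) and in DESeq2. Dusp1, a phosphatase gene, did not pass (edgeR adjusted p = 0.512). Fkbp5, a co-chaperone gene that both androgens and glucocorticoids induce, was at 438.4 ± 112 CPM in Nell2-KO and 472.9 ± 55.4 CPM in WT (SD, n = 4 each; edgeR adjusted p = 0.799). Of 11 mineralocorticoid response genes, 7 were tested, with Nedd4l, a ubiquitin ligase that limits the epithelial sodium channel, higher (151.7 ± 27.5 CPM in Nell2-KO and 92.3 ± 9.97 CPM in WT, SD, n = 4 each; edgeR adjusted p = 0.00807) and Nr3c2 itself lower. Atp1b1, a sodium pump subunit, was at 154.5 ± 19.8 CPM in Nell2-KO and 117.1 ± 13.8 CPM in WT (SD, n = 4 each; edgeR adjusted p = 0.1002).

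The pathways around the less steroid-specific enzymes were described in the same way. Of 20 dolichol pathway genes around Srd5a3, 20 were tested and 0 passed in edgeR or DESeq2, with 0 higher and 1 lower at an unadjusted p under 0.05 and a median log2 fold change of -0.09. Alg8, a glucosyltransferase of the lipid-linked oligosaccharide, was at 6.34 ± 3.30 CPM in Nell2-KO and 12.8 ± 2.53 CPM in WT (SD, n = 4 each; edgeR adjusted p = 0.0822), and it passed without Nell2-KO replicate 1 (edgeR adjusted p = 0.0317). Alg3 (edgeR adjusted p = 0.259) and Alg13 (edgeR adjusted p = 0.314), which serve other steps of that assembly, did not pass. Of 17 genes of peroxisomal beta-oxidation around Hsd17b4, 14 were tested, 2 fell and 1 rose. Crot, a carnitine acyltransferase gene, fell 1.54-fold to 77.0 ± 5.33 CPM in Nell2-KO, against 119.5 ± 6.17 CPM in WT (SD, n = 4 each; edgeR adjusted p = 0.00462, and 0.0672 when all libraries were thinned to the smallest). Abcd3, a peroxisomal fatty acid transporter gene, fell 1.45-fold (edgeR adjusted p = 0.0173). Its call ended on leaving out WT replicate 1, 3 or 4, where the edgeR adjusted p reached 0.0704 (WT replicate 4 left out). The call of Abcd3 also ended with the replicate number as a block in the fit (edgeR adjusted p = 0.0725). Ehhadh, the parallel bifunctional enzyme of the peroxisome, rose 1.48-fold (edgeR adjusted p = 0.0245). The call of Ehhadh ended on leaving out Nell2-KO replicate 2 or 3 or any 1 of the WT libraries, where the edgeR adjusted p reached 0.0979 (Nell2-KO replicate 3 left out). It also ended on thinning (edgeR adjusted p = 0.391) and with the replicate number as a block (0.104). Of 16 lipid droplet genes around Hsd17b11, 9 were tested and 0 passed in edgeR or DESeq2, with 2 higher and 0 lower at an unadjusted p under 0.05. Mgll, a lipase gene, was at 124.6 ± 45.5 CPM in Nell2-KO and 78.1 ± 10.5 CPM in WT (SD, n = 4 each; edgeR adjusted p = 0.0744), and passed without Nell2-KO replicate 1 (edgeR adjusted p = 3.05e-05). Abhd5 (edgeR adjusted p = 0.174) and Pnpla2 (edgeR adjusted p = 0.218), the activator and the triglyceride lipase of the droplet, did not pass.

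**Figure D4:**
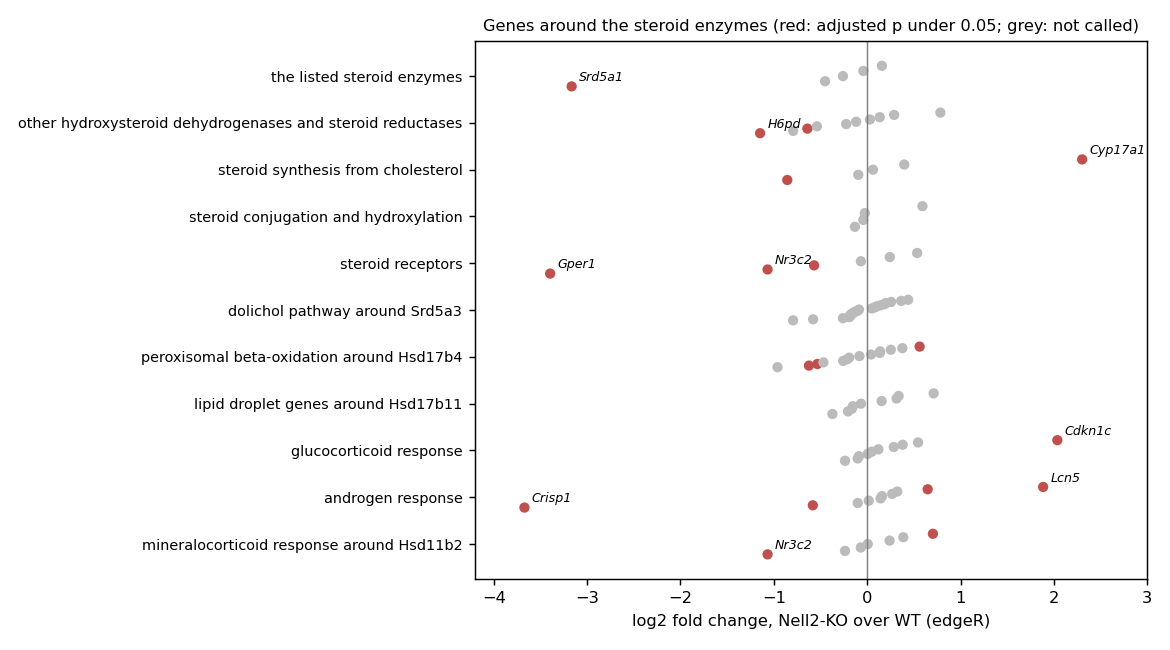
Each point is a tested gene, placed by its log2 fold change (Nell2-KO over WT) on the row of its list, in red where the edgeR adjusted p was under 0.05 and in grey otherwise. Crisp1 at -3.67, Gper1 at -3.40 and Srd5a1 at -3.17 lie furthest to the left. Cyp17a1 at 2.30, Cdkn1c at 2.04 and Lcn5 at 1.88 lie furthest to the right. No point of the dolichol and lipid droplet lists is red.

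The genes whose levels followed Srd5a1 most closely over the 8 libraries were Frmd5 (Pearson r = 0.999 of log2 CPM), Kank1 (r = 0.998) and Trim29 (r = 0.995). Frmd5 was at 0.114 ± 0.229 CPM in Nell2-KO and 8.13 ± 0.628 CPM in WT (SD, n = 4 each). Kank1, a regulator of the actin cytoskeleton, was at 8.73 ± 2.46 CPM in Nell2-KO and 90.7 ± 4.48 CPM in WT, and Trim29 was at 1.49 ± 0.242 CPM in Nell2-KO and 19.5 ± 2.83 CPM in WT (SD, n = 4 each). For each of these genes the 8 libraries form 2 separate groups by genotype, the libraries share their depth and scaling, and 569 of 11061 other genes had r above 0.9. The likeness is therefore a description of a shared split and not a result particular to these genes.

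Marker genes of other cells moved beside Srd5a1, and their part in the result was not tested. Of 8 basal cell markers tested, 5 fell, and their summed level was 357.7 to 441.5 CPM in Nell2-KO, against 624.4 to 656.2 CPM in WT. Of 8 endothelial markers tested, 4 fell, with sums of 64.6 to 92.9 CPM in Nell2-KO and 120.9 to 152.2 CPM in WT. Of 7 smooth muscle markers tested 1 fell, Actg2, to 24.4 ± 5.63 CPM in Nell2-KO, against 1019 ± 132.8 CPM in WT (SD, n = 4 each; edgeR adjusted p = 8.61e-09), while Acta2 and Myh11 did not pass the test. Of 7 fibroblast markers tested 1 rose and 1 fell, of 6 clear cell markers tested 3 rose, and of 7 macrophage and dendritic cell markers tested 1 fell. Of 6 germ cell markers tested 0 passed in edgeR, in DESeq2 or at an unadjusted p under 0.05. Lymphocyte markers summed to at most 2.44 CPM in Nell2-KO and 3.43 CPM in WT, and red cell markers to at most 2.59 CPM in Nell2-KO and 3.43 CPM in WT. Adipocyte markers, of interest because Hsd11b1 is abundant in fat, summed to 0.360 to 1.41 CPM in Nell2-KO and to 0 to 0.972 CPM in WT.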

How the data were processed

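Per the labels' protocols, RNA of flash-frozen caput was purified on columns, amplified in 1 linear round and made into stranded mRNA libraries read as single 36-base reads. Per the submitters' processing notes, Bowtie2 2.2.0, CASAVA 1.8.2 and FastQC 0.11.2 were used, with build mm10. No source used here gives the counting tool, its strand setting or how it treated reads that match several places. Raw counts for each gene in each of the 8 libraries were deposited by the authors, per the file headers. The authors also deposited RPKM values per gene and library, per the file headers, which were used only as levels per length.

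The test was run in edgeR 4.0.16 under R 4.3.3 (TMM scaling, default expression filter, robust quasi-likelihood F test of genotype, 4 against 4 libraries, no covariates). Benjamini-Hochberg adjustment ran over 11062 genes, and a gene was called under 0.05. Standard errors and intervals were derived from the fold change and its F statistic, and scaled-count ratios carry exact binomial 95% intervals. The script was tested on simulated data with known changes. DESeq2 1.42.0 and other settings served as alternatives. No pair of libraries within a group agreed within sampling noise (chi-square per degree of freedom 1.29 to 17.6), so all 8 were kept. Gene positions came from GENCODE M21 and upstream sequences from RefSeq, both on GRCm38 (mm10). Upstream windows were found for 6 of the 10 genes.

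The 10 genes and the lists around them were chosen with earlier results of these data known. Genes were named by rule: the 10 genes, the 3 tested genes of each list with the smallest adjusted p, and the 3 genes most like a called member of the 10. Outside that rule, the Leydig cell markers, Gpx5, Lcn8, Lcn9, Cst8, Rnase10, Adam7, Fkbp5, Nr3c1, Acta2, Myh11, Actg2 and Nsun2 were picked with their values in view. Library totals of 801112 to 6256204 counts set the precision: 3 reads were 4.22 CPM in the smallest library and 0.457 CPM in the largest. One gene of the steroid receptor list is not reported here.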

Additional observations from a re-analysis of the deposited data

Results flagged for a closer look

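Dixon's test was applied to 18 groups of 4 libraries, where chance alone marks about 1 in 20. Hsd11b1 in Nell2-KO replicate 3 was at 1.37 CPM (9 reads), and Nell2-KO replicates 1, 2 and 4 were at 2.70 to 2.91 CPM. Hsd17b2 in WT replicate 2 was at 0.489 CPM, which is 1 read, while the other WT libraries had 0 reads. Any single read beside libraries at 0 is marked by construction, so that value carries no information and the chance rate does not apply to it.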

How the results depend on the processing

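The fall of Srd5a1 kept its direction and its call under all 14 alternatives run. With 1 library left out at a time, 1 to 2 of the 10 genes were called lower, the second being Srd5a2 without Nell2-KO replicate 4, and 0 were called higher under any alternative. The log2 fold change of Hsd17b4, which was not called, ran from -0.0990 to 0.0384 with 1 library left out, above 0 without Nell2-KO replicate 2. Related genes that were not called also changed sign with 1 library left out: Sult2b1 ran from -0.4377 to 0.0940, Dusp1 from -0.1236 to 0.8985 and Fkbp5 from -0.1873 to 0.0595. The cause of these changes was not tested.

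Over all genes, leaving out 1 library gave 443 to 1249 genes higher and 748 to 1541 lower, the most without Nell2-KO replicate 1. Leaving out both Nell2-KO replicate 1 and WT replicate 2 gave 1391 higher and 1694 lower. Thinning all libraries to 801112 counts gave 399 higher and 608 lower, with fewer genes tested. In the related lists together, 6 rose and 10 fell. With 1 library left out 4 to 11 rose and 6 to 13 fell, with both libraries out 13 rose, and with thinning 6 fell. Libraries of the same replicate number deviated from their group means with correlations of -0.278, -0.166, 0.171 and 0.164. The highest correlation was 0.407, between Nell2-KO replicate 1 and WT replicate 2, which each stood apart within their group. With so few libraries and these 2 among them, the values cannot decide whether replicate numbers pair the libraries. With the replicate number as a block, 436 genes were higher and 748 lower, 6 related genes fell, and Srd5a1 had a log2 fold change of -3.17 (edgeR adjusted p = 7.24e-05). The 5 of the 10 genes that the expression filter left out of the main test had 0 to 66 reads over all libraries. Such counts leave their fold changes imprecise. For Hsd17b1, Hsd17b2 and Hsd17b6, at or near the limit of detection, low depth and absent expression were not told apart.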

Other observations

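Upstream windows of 4 further genes of the set were at hand. The PEA3 core AGGAAG was present in the windows of Hsd17b11 and Hsd17b6 and absent from those of Srd5a3 and Hsd11b1. The GC box GGGCGG occurred 3 times for Srd5a3, 1 time for Hsd17b11 and 0 times for Hsd17b6 and Hsd11b1. The steroid hormone response half-site AGAACA was in none of the windows of these 4 genes. Of these 4 genes, Hsd17b6 had 0 reads in all libraries, and neither Srd5a3 nor Hsd17b11 passed the test.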
